A study of Sus scrofa with 24 samples.

Results

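The meniscus is a pad of fibrocartilage between the bones of the knee, and its inner rim, which has no blood vessels and resembles cartilage, differs from its outer part, which is fibrous and has vessels. The comparison described here set inner zone cells against outer zone cells of the porcine medial meniscus while both were stretched. Members are the 3 stretched inner zone libraries and the 3 stretched outer zone libraries that received no IL-1α, which are 6 of the 24 libraries of the series, and every gene with at least 10 reads in any library, which left 13653 of 25880 genes. Of these genes, 13288 reached 10 reads in at least 1 of the 6 libraries and 14 had no read in any of them. At the edge of the filter, 128 genes reached exactly 10 reads in their highest library and were kept, and 170 genes with 9 were not.

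Cells came from skeletally mature female pigs, were pooled from at least 3 menisci, grown for 1 passage and seeded at 250000 cells per well on flexible membranes coated with collagen I. About 40 h later they were stretched equally in all directions of the membrane by 5% at 0.5 Hz for 4 h without the inflammatory cytokine IL-1α that other groups received at 0.1 ng/mL (IL-1 below), and RNA was taken immediately. The inner zone was the narrow inner strip of the meniscus and the outer zone the wider rest. The other groups used here are the unstretched inner and outer zone cells, and the stretched and the unstretched cells of both zones with IL-1. Each group has 3 libraries. The labels give the wells of a zone a number (1 to 3 inner, 4 to 6 outer). All stretched wells carry another label prefix than the unstretched wells, and wells with IL-1 another than those without. Neither stretch nor IL-1 can therefore be told apart from whatever the prefix marks, whereas the zones of stretched cells without IL-1 share a prefix. The labels do not say whether the inner and outer pools came from the same animals, and all p-values measure the spread between wells of pooled cells, not between animals.

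In this tissue, inner zone cells are known for making type II collagen and aggrecan, and outer zone cells for a fibrous matrix. Growth factors of the TGF-β and BMP family, Wnt and Notch signals and retinoic acid act on such cells through receptors, and their target genes are commonly read as a sign that a pathway is active. Cyclic stretch acts on adherent cells through integrins, the actin cytoskeleton and calcium channels.

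The 6 libraries held between 29044000 and 35284000 reads counted in genes. Their levels are given as CPM, reads counted per 1e+06 reads after scaling of each library with TMM (trimmed mean of M values) factors, and differences are inner minus outer zone on the log2 scale ± SE. Between replicates of a group, counts in the 6 libraries differed by more than sampling noise (chi-square per degree of freedom 3.88 to 8.48), so none was a copy of another. Replicate 5 of the stretched outer zone stood apart from replicates 4 and 6: its summed level of 37 mitosis genes was 1696 CPM, against 2036 and 2094 CPM in replicates 4 and 6, and its summed level of 42 interferon-stimulated genes was 1086 CPM, against 845 and 910 CPM. For many gene lists the counts are also given without it. Counts of other lists moved without it too, and not all of these are given.

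Defining markers of both zones' cells were checked. The summed level of 21 fibroblast markers was 65180 to 73820 CPM in inner and 74580 to 83740 CPM in outer zone libraries, most of it COL1A1, for which the zones overlapped (below). The summed level of 19 chondrocyte markers, 17 of them in the table, was 2466 to 2643 CPM in inner and 1301 to 1537 CPM in outer zone libraries. Of 12 endothelial markers in the table, 9 lay under 1 CPM in both zones and EGFL7 was at 0, and of 14 leukocyte markers CD163, CD3E, CD3D and MS4A1 were at 0 in all 6 libraries. The 13 mural and smooth muscle markers summed to 2065 to 2235 CPM in inner and 1349 to 1473 CPM in outer zone libraries, most of it ACTA2, an actin that cultured fibroblasts also make. These are bulk libraries, in which fewer cells of a type and less RNA per cell cannot be told apart, and the part of cell mixture in the results was not tested.

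By edgeR's quasi-likelihood test with Benjamini-Hochberg adjustment over all tested genes, 345 genes were more than 2-fold higher and 417 more than 2-fold lower in stretched inner than in stretched outer zone cells with an adjusted p below 0.05. Together these 762 genes are 5.58% of all tested (2.53% higher, 3.05% lower). When the fold was left out of the rule, 2782 genes were higher (20.4%) and 3236 lower (23.7%), so that 44.1% of tested genes passed and a share of a gene list near these values says nothing particular about the list. Large differences were more often on the outer side, where 122 called genes were more than 4-fold and 42 more than 8-fold lower in inner zone cells, against 68 and 14 higher. Replicates of the zones did not overlap in 748 of the 762 called genes. That was also the case for 24% of all tested genes on the higher side and 27.7% on the lower side. Of the called genes, 266 lay under 1 CPM in both zones, 65 had no symbol and 13 were not protein coding.

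Among genes with a mean of at least 5 CPM in the inner zone, those with the largest differences on that side included a growth factor of joints, a cartilage collagen and regulators of signalling at the membrane. MSMP, a small secreted protein, measured 19.9, 19.9 and 21.1 CPM in stretched inner zone cells, against 1.14, 1.14 and 1.49 CPM in stretched outer zone cells (log2 difference 4.0 ± 0.15, adjusted p = 2.67e-19). GDF6 (ENSSSCG00000034943, chromosome 4, 40473015 to 40491142 on Sscrofa11.1), a BMP-type ligand needed for joint formation, measured 16.9, 14.5 and 17.7 CPM in inner zone and 1.93, 1.41 and 1.36 CPM in outer zone libraries (3.39 ± 0.12, adjusted p = 7.68e-22). COL2A1 (ENSSSCG00000025523, chromosome 5, 78350131 to 78380893), the fibrillar collagen of cartilage, measured 34.3, 42.1 and 41.6 CPM in inner zone and 6.17, 6.38 and 5.32 CPM in outer zone libraries (2.73 ± 0.09, adjusted p = 4.69e-23). For these 3 genes the lowest inner zone library lay well above the highest outer zone library, and replicates of a zone lay close together. SPINT2, an inhibitor of serine proteases (2.53 ± 0.15), ARHGDIB (2.41 ± 0.13), TIAM1, an activator of the GTPase Rac (1.96 ± 0.11), BVES, a membrane protein that binds cyclic AMP (2.04 ± 0.09), GNG2, a G protein subunit (1.79 ± 0.06), and MT2A, a metallothionein (1.75 ± 0.09), followed. The remaining genes among the 15 largest were SHISA2, CCDC141, ZNF385B, AIF1L, PLXDC1 and the chemokine CXCL8, with log2 differences between 1.78 and 2.33.

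Among genes with a mean of at least 5 CPM in the outer zone, the largest differences on that side were those of ALDH1A1, ECEL1 and SCARA5. ALDH1A1 (ENSSSCG00000028996, chromosome 1, 226163347 to 226217342), an enzyme that makes retinoic acid, was nearly absent from inner zone cells, with 0.0825, 0.0311 and 0.0314 CPM, against 5.63, 4.91 and 5.38 CPM in outer zone cells (-6.62 ± 0.33, adjusted p = 4.57e-18). ECEL1, a membrane protease related to endothelin-converting enzymes, measured 0.275, 0.249 and 0.533 CPM in inner zone and 12.2, 12.4 and 11.0 CPM in outer zone libraries (-5.07 ± 0.19, adjusted p = 1.04e-21). SCARA5, a scavenger receptor used as a fibroblast marker, measured 1.02, 0.684 and 0.659 CPM in inner zone and 13.3, 15.6 and 14 CPM in outer zone libraries (-4.16 ± 0.14, adjusted p = 2.06e-22). In all 3 the libraries of the zones were far apart. CPXM2, a carboxypeptidase-like protein (-3.92 ± 0.14), LCP1, an actin-bundling protein best known from leukocytes (-3.47 ± 0.11), the matrix protein ABI3BP (-3.28 ± 0.10), ACSS1, a mitochondrial acetyl-CoA synthetase (-3.21 ± 0.15), the channel gene CALHM5 (-3.06 ± 0.09), and the cyclic AMP phosphodiesterases PDE8B (-2.86 ± 0.17) and PDE7B (-2.79 ± 0.16) were also lower in inner zone cells. Since LCP1 is known from leukocytes, the 14 leukocyte markers in the table are given beside it. They summed to 22.6 to 24.2 CPM in inner and 27.3 to 32.3 CPM in outer zone libraries. Of these markers, 4 were at 0 and 10 lay under 1 CPM in both zones. Counted singly, the balance was the other way: among 7 tested, 3 passed the adjusted p on the inner side and 1 on the outer side. The median log2 difference was 0.32. Leaving out 1 library gave 1 to 3 on the inner side and 1 on the outer. The part of these markers in the LCP1 difference was not tested.

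**Figure D1:**
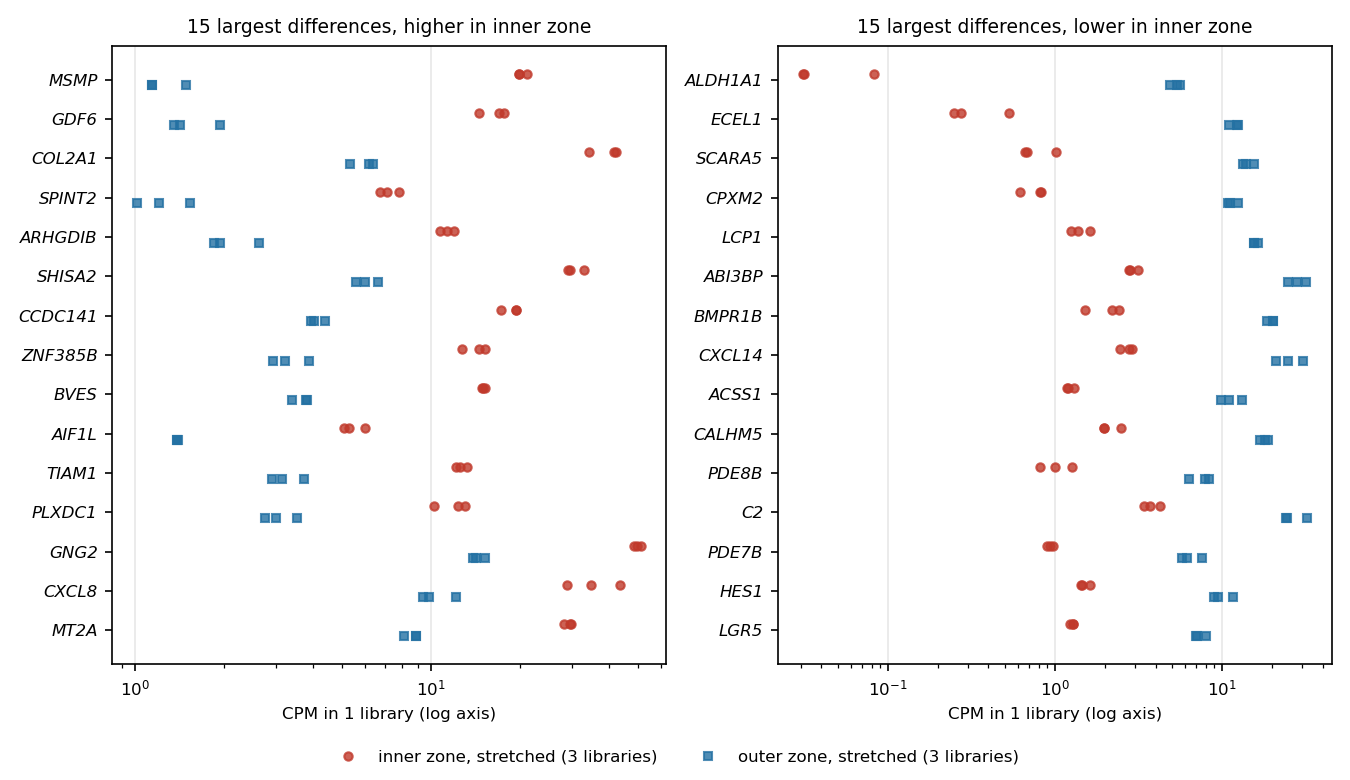
Level in each library (CPM, log axis) of the 15 genes with the largest differences that were higher (left panel) and the 15 that were lower (right panel) in stretched inner than in stretched outer zone cells; circles are the 3 inner zone libraries and squares the 3 outer zone libraries. The symbols of the zones do not overlap for any of the 30 genes, which is part of the rule by which they were picked.

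Type II collagen and aggrecan genes were higher in inner zone cells, and COMP was lower. Of 16 tested genes of the cartilage matrix list, 8 were higher and 5 lower at an adjusted p under 0.05 (median log2 difference 0.61, against -0.01 over all tested genes). COL11A1, which builds fibrils with type II collagen (1.42 ± 0.04, adjusted p = 1.48e-25), MATN4, a matrix adaptor protein (1.73 ± 0.05), and HAPLN1, which links aggrecan to hyaluronan (1.40 ± 0.06), were higher in inner zone cells. ACAN, the core protein of aggrecan, measured 397, 491 and 451 CPM in inner zone and 235, 310.5 and 257 CPM in outer zone libraries (0.74 ± 0.11, adjusted p = 2.09e-05), and the lowest inner library lay above the highest outer one. SCRG1, a gene of chondrocytes, and COL9A1, a collagen that decorates type II fibrils, also passed the test (4.40 ± 0.54 and 2.03 ± 0.62) but lay under 1 CPM in every library. COMP, a large matrix protein of cartilage and tendon, measured 69.2, 85.2 and 80.8 CPM in inner zone and 308, 405 and 298 CPM in outer zone libraries (-2.10 ± 0.13, adjusted p = 3.02e-10), with outer replicate 5 highest. MATN2 (-0.76 ± 0.08), CILP (-0.67 ± 0.18), CHAD (-0.31 ± 0.07) and COL27A1 (-0.21 ± 0.07) were lower in inner zone cells too. Without outer replicate 5 the counts were 9 higher and 4 lower with a median of 0.83.

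VCAN and some hyaluronan genes were lower in inner zone cells, though their list divided between the zones. Most small leucine-rich proteoglycans that passed the test were higher. VCAN, the versican core protein, measured 420.1, 373 and 429 CPM in inner zone and 1006, 1101 and 998 CPM in outer zone libraries (-1.35 ± 0.09, adjusted p = 8.50e-10). PRELP, a small leucine-rich proteoglycan of cartilage and basement membranes, measured 619, 660.4 and 651 CPM in inner zone and 391, 417 and 394 CPM in outer zone libraries (0.68 ± 0.04, adjusted p = 3.73e-17). The zones did not overlap for either gene. HAS3, a hyaluronan synthase (-1.55 ± 0.19), and HAPLN3, a link protein (-1.43 ± 0.07), were lower in inner zone cells. Of 13 tested hyaluronan and large proteoglycan genes, 4 were higher and 5 lower, with a median of 0.23 (0.21 without outer replicate 5). Of 9 small leucine-rich proteoglycans, 5 were higher and 1 lower, with a median of 0.16, or 6 and 1 without outer replicate 5. The higher members named by the rule were PRELP, OMD (0.36 ± 0.07), OGN (0.38 ± 0.13) and LUM (0.21 ± 0.06), and the lower one was ECM2 (-0.75 ± 0.09). The call of OGN was lost without inner replicate 1, inner replicate 2 or outer replicate 4 (adjusted p = 0.0615, 0.0941 and 0.107).

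Fibrous matrix genes divided between the zones. Of 39 tested genes of fibrous matrix and elastic fibres, 10 were higher in inner zone cells and 17 were lower (median -0.08), or 12 and 15 without outer replicate 5 (-0.05). FBN2, a fibrillin of elastic fibres, measured 2.31, 2.45 and 2.51 CPM in inner zone and 9.58, 12.4 and 10.7 CPM in outer zone libraries (-2.17 ± 0.11, adjusted p = 4.22e-18), and FBLN2, a fibulin, measured 189, 208 and 212 CPM in inner zone and 417, 467 and 410.1 CPM in outer zone libraries (-1.09 ± 0.05). TNXB, a tenascin of loose connective tissue, was lower (-1.18 ± 0.08) and EFEMP1, another fibulin, was higher (1.13 ± 0.17) in inner zone cells. COL1A1, the collagen of fibrous tissue, did not pass the test: it measured 44998, 51720.4 and 53055 CPM in inner zone and 51719.5, 58743 and 51844 CPM in outer zone libraries, which overlapped (-0.12 ± 0.06, adjusted p = 0.156). COL21A1 had no read in the inner zone libraries and 0.316, 0.120 and 0.313 CPM in the outer ones, at least 8.37-fold lower in inner zone cells against a floor of 3 reads over the group. Matricellular genes, whose products modify how cells meet the matrix, gave 7 higher and 8 lower of 22 tested (median -0.21), or 7 and 10 without outer replicate 5 (-0.33). SPP1, osteopontin, measured 194, 184 and 208 CPM in inner zone and 70.2, 67.3 and 62.6 CPM in outer zone libraries (1.55 ± 0.06), whereas THBS4 (-2.48 ± 0.14), TNN (-1.93 ± 0.15), SPOCK1 (-1.72 ± 0.16) and WISP2 (-1.61 ± 0.11) were lower. Basement membrane genes gave 3 higher and 8 lower of 16, among them COL4A2 at 201, 217 and 233 CPM in inner zone and 351, 379.6 and 324 CPM in outer zone libraries (-0.70 ± 0.05).

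Matrix-degrading enzymes were lower in inner zone cells in most cases that passed the test. Of 34 tested, 2 were higher and 18 lower (median -0.35), or 1 and 17 without outer replicate 5 (-0.29). MMP2, gelatinase A, measured 424, 455 and 456 CPM in inner zone and 1126, 1391 and 1159 CPM in outer zone libraries (-1.46 ± 0.08, adjusted p = 2.41e-11). MMP3, stromelysin, measured 282, 247 and 251 CPM in inner zone and 614, 962 and 579 CPM in outer zone libraries (-1.47 ± 0.16, adjusted p = 6.97e-07). Outer replicate 5 was the highest library for both, and the zones did not overlap. The lysosomal protease CTSL (-1.10 ± 0.12) and ADAMTS7, which cleaves COMP (-1.10 ± 0.06), were lower as well, while ADAMTS5, an aggrecanase, differed by -0.19 ± 0.13 and MMP13, a collagenase, by -0.79 ± 0.52, neither past the test (adjusted p = 0.242 and 0.233). Of 14 protease inhibitors, 4 were higher and 6 lower. TIMP3, an inhibitor bound to matrix, measured 583, 510.2 and 569 CPM in inner zone and 348, 339 and 319.6 CPM in outer zone libraries (0.72 ± 0.07, adjusted p = 1.74e-08), and SERPINF1 was lower (-0.50 ± 0.07).

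Receptors and ligands of the BMP and TGF-β family differed in both directions, and their target genes were mostly lower in inner zone cells. Of 36 tested ligands, receptors and antagonists, 10 were higher and 14 lower (median -0.05), or 10 and 9 without outer replicate 5 (-0.04). Besides GDF6, the ligand TGFB2 was higher, at 76.7, 81.1 and 77.1 CPM in inner zone and 38.1, 47.0 and 42.8 CPM in outer zone libraries (0.88 ± 0.07), while BMPR1B, a type I BMP receptor to which GDF ligands bind, measured 2.42, 1.52 and 2.20 CPM in inner zone and 20.1, 20.2 and 18.5 CPM in outer zone libraries (-3.25 ± 0.12, adjusted p = 6.20e-22). ACVRL1, another type I receptor, was lower (-0.86 ± 0.12). Of 29 tested target genes, 20 were lower and 4 higher, with a median of -0.79 (18 lower and 5 higher without outer replicate 5, median -0.71). ID1 and ID3 code for inhibitors of helix-loop-helix factors and respond to BMP. ID1 measured 141, 129.7 and 138 CPM in inner zone and 359.7, 326 and 309 CPM in outer zone libraries (-1.28 ± 0.12), and ID3 measured 248, 265 and 266 CPM in inner zone and 547, 559 and 523 CPM in outer zone libraries (-1.06 ± 0.09). SMAD7 (-1.06 ± 0.10) and SMAD6 (-0.85 ± 0.09), inhibitory SMADs, SNAI1 (-1.05 ± 0.10), TGFBI (-1.03 ± 0.04) and NOX4 (-1.69 ± 0.10) were lower too. The 4 that were higher were HEY2 (0.90 ± 0.04), CTGF (0.50 ± 0.06), LTBP2 (0.27 ± 0.04) and TAGLN (0.21 ± 0.04).

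Of 21 tested Notch pathway genes, 3 were higher and 8 lower. The Notch-responsive repressors did not move together: HES1 measured 1.43, 1.46 and 1.63 CPM in inner zone and 11.6, 9.42 and 8.93 CPM in outer zone libraries (-2.72 ± 0.13, adjusted p = 3.28e-17), HEY1 was lower (-1.63 ± 0.22), and HEY2 measured 161, 161 and 161 CPM in inner zone and 90.4, 80.8 and 88.7 CPM in outer zone libraries. JAG1, a ligand of Notch, was higher (0.56 ± 0.06). Wnt pathway genes gave 16 higher and 19 lower of 50 tested (median 0.01). LGR5, a receptor of R-spondins, measured 1.24, 1.27 and 1.29 CPM in inner zone and 6.99, 7.04 and 8.07 CPM in outer zone libraries (-2.54 ± 0.15), and the secreted Wnt antagonists SFRP4 (-1.64 ± 0.07) and SFRP2 (-1.28 ± 0.15) were lower. AXIN2, a feedback target of Wnt signals, was higher, at 18.2, 15.3 and 17 CPM in inner zone and 8.60, 8.52 and 8.61 CPM in outer zone libraries (0.97 ± 0.08). Among 21 retinoic acid genes, 7 were higher and 7 lower: next to ALDH1A1, the synthesis enzyme ALDH1A3 (-0.80 ± 0.08) and the binding protein CRABP2 (-1.61 ± 0.04) were lower, and CYP26A1, which breaks retinoic acid down, was higher, at 3.60, 3.42 and 3.89 CPM in inner zone and 0.854, 0.903 and 1.17 CPM in outer zone libraries (1.88 ± 0.17). Without outer replicate 5 the retinoic acid counts were 5 higher and 7 lower.

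Growth factor ligands differed in both directions, and the IGF-binding proteins IGFBP4 and IGFBP2 were lower in inner zone cells. Of 43 tested genes of the EGF, FGF, PDGF and VEGF families, 12 were higher and 17 lower, or 12 and 13 without outer replicate 5. AREG, an EGF receptor ligand, measured 132, 95.0 and 122 CPM in inner zone and 46.7, 26.5 and 35.5 CPM in outer zone libraries (1.69 ± 0.16), and BTC, another such ligand, was higher as well (1.80 ± 0.18), while HBEGF, also one, did not pass the test (-0.16 ± 0.20, adjusted p = 0.556). ANGPT2, a ligand of the TIE2 receptor, measured 3.00, 2.86 and 2.95 CPM in inner zone and 0.316, 0.421 and 0.261 CPM in outer zone libraries (3.14 ± 0.21). FGF1, an acidic fibroblast growth factor, was higher (0.83 ± 0.13), whereas FGF10 (-2.21 ± 0.13) and HGF (-2.57 ± 0.23) were lower, with FGF10 at 1.81, 1.43 and 1.57 CPM in inner zone and 7.31, 7.43 and 7.60 CPM in outer zone libraries. IGFBP4 measured 74.5, 78.1 and 86.6 CPM in inner zone and 425, 453 and 411 CPM in outer zone libraries (-2.43 ± 0.05, adjusted p = 2.13e-25), and IGFBP2 measured 172, 208 and 194 CPM in inner zone and 709, 785 and 684 CPM in outer zone libraries (-1.92 ± 0.08). Of 19 tested genes of the IGF axis, 6 were higher and 10 lower.

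Transcription factors of skeletal cells showed opposite differences for SOX6 and RUNX2. SOX6, a partner of SOX9 in chondrocytes, measured 9.73, 10.7 and 11.07 CPM in inner zone and 4.18, 5.42 and 5.22 CPM in outer zone libraries (1.08 ± 0.10, adjusted p = 8.03e-11). SOX9 itself did not pass the test (-0.07 ± 0.12, adjusted p = 0.664). RUNX2, a factor of hypertrophic chondrocytes and bone-forming cells, measured 2.78, 2.77 and 2.76 CPM in inner zone and 6.33, 7.89 and 6.86 CPM in outer zone libraries (-1.34 ± 0.13, adjusted p = 8.53e-11). SP7, which acts after RUNX2 in bone-forming cells, was lower as well (-2.26 ± 0.28). Of 31 tested chondrogenic factors, 13 were higher and 9 lower (median 0.23), and of 55 limb and positional factors 12 were higher and 19 lower (median -0.20). Without outer replicate 5 the limb and positional counts were 11 and 16 (-0.17). EMX2, a homeobox factor, was higher in inner zone cells (1.57 ± 0.23) at under 2 CPM in every library.

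Genes that connect cells to matrix and cytoskeleton differed by subunit. Of 24 integrins, 10 were higher and 8 lower (median 0.11). ITGA6, a laminin-binding subunit, measured 74.9, 67.2 and 67.4 CPM in inner zone and 22.3, 22.9 and 24.8 CPM in outer zone libraries (1.58 ± 0.05, adjusted p = 1.40e-22), and ITGA3, another laminin-binding subunit, was higher (1.32 ± 0.10), whereas ITGA9 measured 10.2, 10.2 and 9.25 CPM in inner zone and 28.2, 31.8 and 29.2 CPM in outer zone libraries (-1.59 ± 0.07). Of 39 actin and contractile genes, 23 were higher and 5 lower (median 0.14), and of 27 targets of YAP and TEAD, which respond to tension, 15 were higher and 5 lower (median 0.20). SYNPO2, an actin-binding protein, measured 175, 159.7 and 168 CPM in inner zone and 65.9, 61.8 and 69.4 CPM in outer zone libraries (1.35 ± 0.06), MYOCD, a coactivator of smooth muscle genes, was higher (1.48 ± 0.12), and ACTA2 measured 1589, 1573 and 1706 CPM in inner zone and 1008, 903 and 959 CPM in outer zone libraries (0.76 ± 0.06). MYH11, the smooth muscle myosin, was lower (-0.98 ± 0.13). CRIM1 (1.09 ± 0.05) and F3, tissue factor (1.10 ± 0.18), were higher among the YAP-TEAD targets, and DOCK5 was lower (-1.68 ± 0.07). Of 22 cadherins and related adhesion genes, 4 were higher and 11 lower, led among those over 1 CPM by PCDH7 (-2.75 ± 0.17), CDH4 (-2.37 ± 0.16) and CADM1 (-1.52 ± 0.12). Axon guidance ligands and receptors gave 16 higher and 20 lower of 50, with EPHA5 at 0.440, 0.621 and 0.220 CPM in inner zone and 2.72, 2.56 and 2.69 CPM in outer zone libraries (-2.62 ± 0.20). Of 31 genes of calcium entry and calcineurin signalling, 11 were higher and 9 lower: RCAN1, a feedback inhibitor of calcineurin, measured 435, 385 and 380.5 CPM in inner zone and 270.1, 256 and 249 CPM in outer zone libraries (0.63 ± 0.08), and CACNA1C, a calcium channel, was lower (-0.71 ± 0.05).

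**Figure D2:**
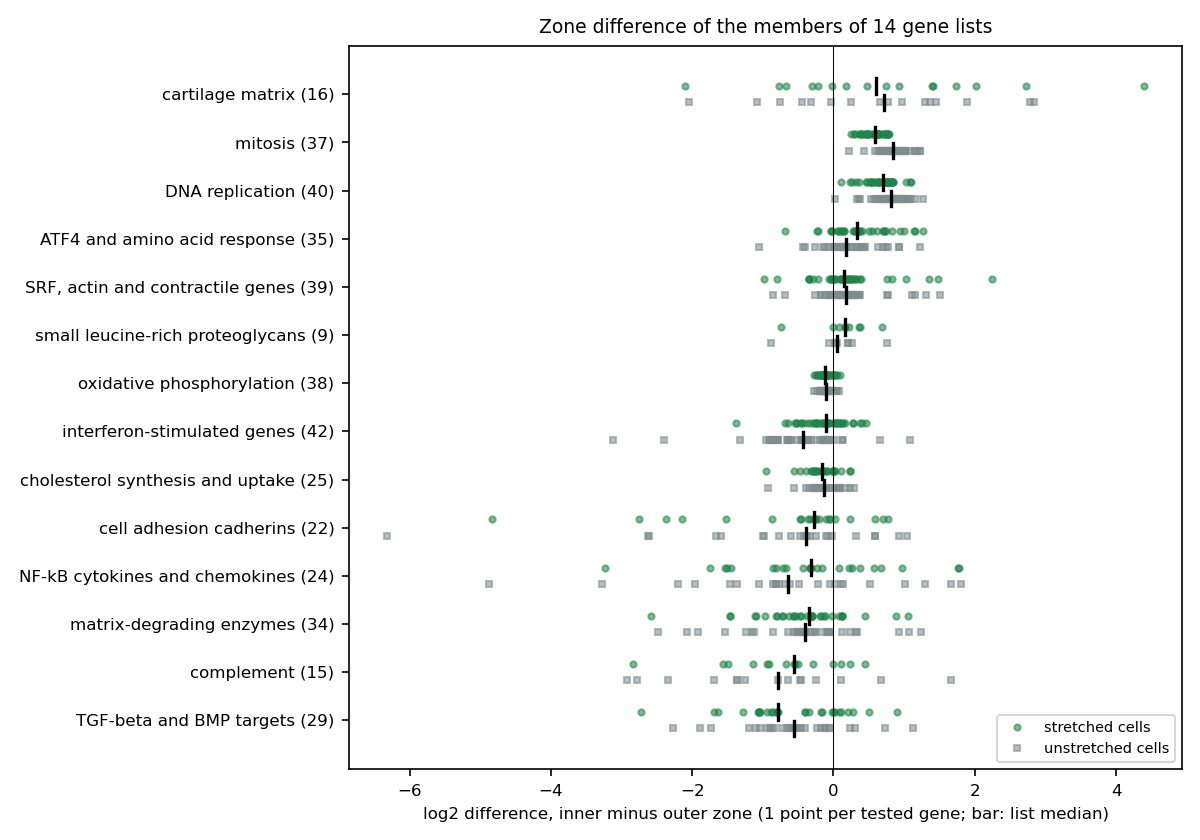
Log2 difference, inner minus outer zone, of each tested member of 14 gene lists (number of tested genes in brackets), in stretched cells (circles, upper row of each list) and in unstretched cells (squares, lower row); the vertical bars are list medians. Mitosis genes lie between 0.24 and 0.78 in stretched cells with a median of 0.59, against a median of 0.85 in unstretched cells, and TGF-β and BMP targets have a median of -0.79 in stretched cells.

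Among inflammatory genes that passed the test, more were lower than higher in inner zone cells, and many did not pass. Of 24 tested cytokines and chemokines that NF-κB controls, 2 were higher and 10 lower (median -0.32), or 3 and 9 without outer replicate 5 (-0.18). CXCL14, a chemokine of fibroblasts, measured 2.45, 2.89 and 2.76 CPM in inner zone and 24.6, 30.6 and 20.9 CPM in outer zone libraries (-3.23 ± 0.13, adjusted p = 6.32e-17). CXCL8, which attracts neutrophils, measured 43.5, 28.8 and 34.8 CPM in inner zone and 12.1, 9.81 and 9.37 CPM in outer zone libraries (1.78 ± 0.17, adjusted p = 1.83e-07). The zones were separate for both, in opposite directions. CCL2, which attracts monocytes, was lower, at 29.3, 30.4 and 31.2 CPM in inner zone and 101, 115 and 90.1 CPM in outer zone libraries (-1.75 ± 0.09), as were IL11 (-1.51 ± 0.16), LIF (-1.54 ± 0.14) and IL6 (-1.45 ± 0.21), which signal through gp130. Complement genes gave 1 higher and 7 lower of 15 tested, with a median of -0.56. C2 measured 3.68, 4.23 and 3.42 CPM in inner zone and 24.3, 32.1 and 24.4 CPM in outer zone libraries (-2.83 ± 0.14), SERPING1, the inhibitor of C1, was lower (-1.14 ± 0.11), and C1S was lower (-0.67 ± 0.14), although the fit on the 6 libraries alone lost the call of C1S (adjusted p = 0.0587). PTGFR, the receptor of prostaglandin F2α, measured 20.8, 21.9 and 22.0 CPM in inner zone and 71.7, 82.0 and 76.5 CPM in outer zone libraries (-1.83 ± 0.09), and PTGS2, cyclooxygenase 2, was higher (0.28 ± 0.07).

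Interferon-stimulated genes differed little between the zones of stretched cells. Of 42 tested, 1 was higher and 4 lower (median -0.11), against 0 higher and 19 lower in unstretched cells (median -0.43), but the interaction test called none of them, so a change with stretch was not shown. IFI44L (-0.69 ± 0.16), OAS2 (-0.65 ± 0.22) and IFI44 (-0.55 ± 0.17) were among the lower genes and IFIT5 was higher (0.40 ± 0.13). Outer replicate 5, with the highest summed level of the list among the 3 stretched outer zone libraries, bears on these calls: without it 1 member was lower and none higher, the median was 0.00, and OAS2, IFI44 and IFIT5 lost their calls (adjusted p = 0.129, 0.0720 and 0.0565).

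Of 16 genes that the study names, 3 were higher and 5 lower. The study chose some of them on these samples for their response to stretch with IL-1, so they are not independent evidence. Others it names for other reasons: VEGFA from compressed outer zone tissue, and COL2A1, COL1A1 and ACAN as not raised by load. ACAN, COL2A1 and RRAD (0.34 ± 0.12) were higher, and MMP3, IL6, LIF and NFATC2, a transcription factor that calcineurin activates (-0.29 ± 0.05), were among the lower genes. RRAD, a GTPase that inhibits calcium channels, lost its call without inner replicate 2 or 3 or without outer replicate 4 or 6 (adjusted p between 0.0587 and 0.0743). VEGFA measured 133, 99.7 and 116 CPM in inner zone and 141, 143 and 124 CPM in outer zone libraries, which overlapped (-0.22 ± 0.11, adjusted p = 0.110), or -0.33 (adjusted p = 0.0299) without inner replicate 1. CXCL10 lay under 1 CPM in all 6 libraries.

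Cell division genes were higher in inner zone cells without exception on the mitosis list. All 37 tested mitosis genes were higher in inner zone cells at an adjusted p under 0.05, none of them by more than 2-fold, with a median of 0.59, and the same was found without outer replicate 5, where the median was 0.50. Of 40 tested DNA replication genes, 39 were higher and none lower, with a median of 0.70 (0.65 without outer replicate 5). TOP2A, the topoisomerase that untangles chromosomes, measured 172, 151 and 165 CPM in inner zone and 102, 78.5 and 107 CPM in outer zone libraries (0.76 ± 0.08, adjusted p = 1.64e-07), and AURKB, the kinase of the chromosome passenger complex, measured 26.9, 29.0 and 30.5 CPM in inner zone and 18.8, 14.7 and 17 CPM in outer zone libraries (0.77 ± 0.07, adjusted p = 1.12e-10). The lowest library of these genes was outer replicate 5. CDC6, which loads the replicative helicase, measured 13.3, 11.5 and 11.9 CPM in inner zone and 6.45, 5.78 and 5.87 CPM in outer zone libraries (1.02 ± 0.11), and it was with E2F2 (1.10 ± 0.17) and POLE2 (1.08 ± 0.15) over 2-fold. CDKN1C, an inhibitor of cyclin-dependent kinases, was lower, at 36.8, 35.3 and 35.4 CPM in inner zone and 81.4, 85.7 and 81.0 CPM in outer zone libraries (-1.21 ± 0.05, adjusted p = 1.04e-19), whereas CDK6, a kinase of the G1 phase, was higher (0.73 ± 0.05).

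Summed over the list, mitosis genes took 2886, 2787 and 2808 CPM in stretched inner zone libraries, against 2036, 1696 and 2094 CPM in stretched outer zone libraries. In unstretched cells the sums were 3241, 3261 and 3277 CPM in inner and 1908, 1765 and 1841 CPM in outer zone libraries. The inner zone libraries lay above all outer zone libraries at either condition, the stretched inner libraries lay below the unstretched inner ones, and stretched and unstretched outer zone libraries overlapped only through replicate 5 of the stretched cells (1696 CPM), while the other stretched outer libraries lay above all unstretched outer ones.

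**Figure D3:**
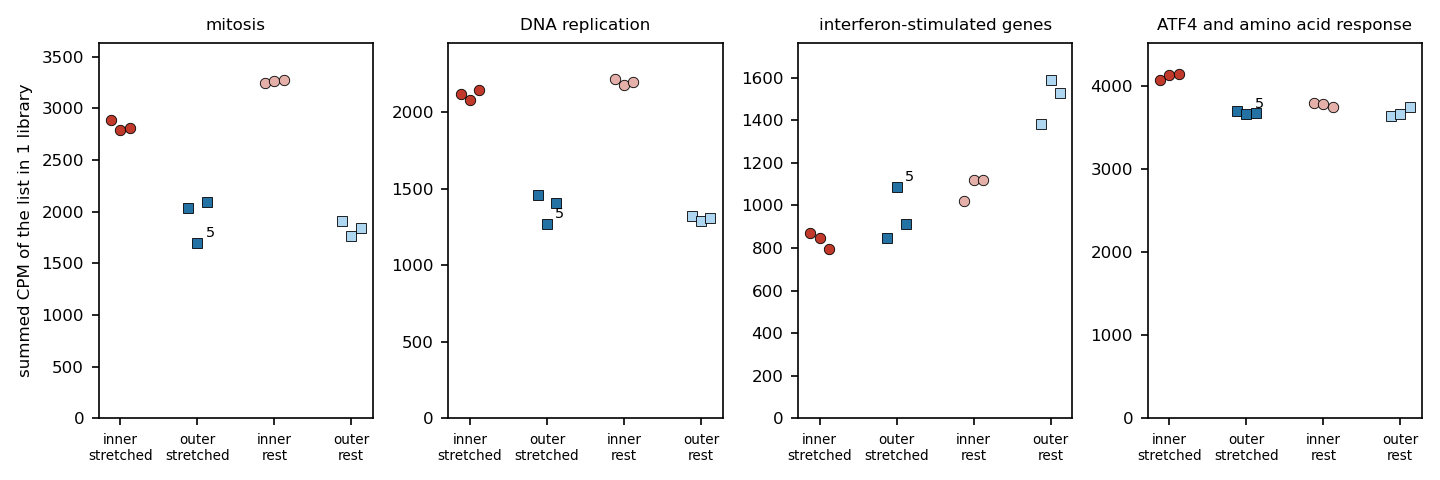
Summed CPM of 4 gene lists in each of the 12 libraries without IL-1 (circles inner zone, squares outer zone, dark stretched, light unstretched, called rest on the axis); the number 5 marks replicate 5 of the stretched outer zone. That library is the lowest of its group for mitosis (1696 CPM) and DNA replication (1268 CPM) and the highest for interferon-stimulated genes (1086 CPM), and the ATF4 list is highest in the stretched inner zone libraries (4078 to 4151 CPM).

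Promoters of division genes are known for CCAAT boxes, which bind NF-Y, and for the element TTTGAA, a core of the cell cycle homology region that the DREAM complex binds. The 250 bases before the RefSeq gene start on Sscrofa11.1 were searched for both motifs on both strands, and the windows of 4 division genes from the results are shown with CCAAT (or ATTGG, its complement) and TTTGAA (or TTCAAA) in capitals, 5′ to 3′ on the strand of the gene. They were picked after seeing the results: CCNF, TK1 and PSRC1 changed their zone difference with stretch (below), and TOP2A is an abundant mitosis gene.
CCNF: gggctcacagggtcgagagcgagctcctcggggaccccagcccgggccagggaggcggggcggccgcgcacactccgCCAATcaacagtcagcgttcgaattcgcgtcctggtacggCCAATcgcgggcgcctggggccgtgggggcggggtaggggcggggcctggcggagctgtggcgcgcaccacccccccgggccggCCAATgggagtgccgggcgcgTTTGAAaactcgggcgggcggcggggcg
TK1: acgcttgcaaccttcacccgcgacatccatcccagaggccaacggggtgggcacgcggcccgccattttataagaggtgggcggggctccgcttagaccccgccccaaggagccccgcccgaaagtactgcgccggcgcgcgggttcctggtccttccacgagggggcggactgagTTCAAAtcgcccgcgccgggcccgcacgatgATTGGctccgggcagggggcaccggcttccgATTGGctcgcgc
PSRC1: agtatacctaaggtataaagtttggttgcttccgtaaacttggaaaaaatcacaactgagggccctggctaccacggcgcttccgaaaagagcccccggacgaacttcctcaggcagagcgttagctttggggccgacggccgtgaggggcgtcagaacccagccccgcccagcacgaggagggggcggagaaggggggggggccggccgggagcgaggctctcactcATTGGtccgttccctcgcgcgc
TOP2A: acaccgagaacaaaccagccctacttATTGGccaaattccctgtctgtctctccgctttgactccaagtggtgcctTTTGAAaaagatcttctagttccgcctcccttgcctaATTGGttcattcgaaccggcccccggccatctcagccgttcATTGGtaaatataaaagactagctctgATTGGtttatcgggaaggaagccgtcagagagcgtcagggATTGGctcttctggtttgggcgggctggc
These windows lie on chromosome 3 from 39603089 to 39603338 (minus strand), chromosome 12 from 3785747 to 3785996 (plus strand), chromosome 4 from 110813056 to 110813305 (plus strand) and chromosome 12 from 22001050 to 22001299 (plus strand). CCAAT occurs 3 times before CCNF, 2 times before TK1, 1 time before PSRC1 and 5 times before TOP2A, and TTTGAA occurs 1 time before each of CCNF, TK1 and TOP2A and is not in the window of PSRC1. The box nearest to the start begins 49 bases before CCNF, 12 before TK1, 22 before PSRC1 and 29 before TOP2A. Of the 37 mitosis genes that were higher in inner zone cells, 17 held CCAAT (45.9%) and 11 TTTGAA (29.7%), and of the 39 DNA replication genes 21 held CCAAT (53.8%) and 5 TTTGAA (12.8%). Over the same window of 19240 protein-coding genes the shares were 31.9% and 12.6%. The E box CACGTG was in 6 (16.2%) of the mitosis and 3 (7.69%) of the DNA replication windows, and in 6.43% of all windows. Over all windows, CCAAT and TTTGAA overlapped in 10 places. A match describes letters, not binding.

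Genes of amino acid supply and the ATF4 response were higher in inner zone cells. Of 35 tested genes that the transcription factor ATF4 controls, 25 were higher and 3 lower (median 0.33), against 20 and 4 in unstretched cells (0.18). PHGDH, the first enzyme of serine synthesis, measured 97.3, 107 and 99.6 CPM in inner zone and 46.6, 42.6 and 48.5 CPM in outer zone libraries (1.14 ± 0.07, adjusted p = 1.06e-13). CHAC1, an enzyme that breaks down glutathione, measured 41.8, 41.1 and 42.4 CPM in inner zone and 18.7, 20.8 and 16.9 CPM in outer zone libraries (1.16 ± 0.08, adjusted p = 1.19e-12). The inner zone libraries lay above all outer ones for both. STC2, a secreted glycoprotein (1.27 ± 0.10), CBS, an enzyme of cysteine synthesis (1.0 ± 0.07), and SLC1A4, an amino acid transporter (0.94 ± 0.08), were higher as well, and CEBPB (-0.69 ± 0.06), SLC38A2 (-0.21 ± 0.08) and NUPR1 (-0.23 ± 0.09) were lower. Oxidative phosphorylation genes gave 22 lower and none higher of 38 (16 without outer replicate 5), with small differences: the largest was -0.28 ± 0.07 for NDUFB10, a subunit of complex I, and the median was -0.12. Cholesterol synthesis and uptake gave 2 higher and 14 lower of 25, with HSD17B7 at 42.4, 39.5 and 39.2 CPM in inner zone and 60.6, 61.6 and 56.0 CPM in outer zone libraries (-0.56 ± 0.05). Among NRF2 targets and antioxidant genes, 5 were higher and 14 lower of 28. SOD3, the secreted superoxide dismutase, measured 389, 408 and 447 CPM in inner zone and 628, 729 and 607 CPM in outer zone libraries (-0.66 ± 0.07), and CAT, catalase, was lower (-0.80 ± 0.05). Of 31 hypoxia and glycolysis genes, 5 were higher and 15 lower, and CA12, a carbonic anhydrase, measured 17.3, 20.0 and 18.8 CPM in inner zone and 67.6, 86.6 and 73.3 CPM in outer zone libraries (-2.02 ± 0.08).

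Immediate-early and feedback genes of the MAP kinase pathway gave 10 higher and 13 lower of 34 tested (median -0.14), or 10 and 11 without outer replicate 5 (-0.01). DUSP6, a phosphatase of ERK, measured 19.1, 18.3 and 20.3 CPM in inner zone and 44.3, 49.9 and 46.0 CPM in outer zone libraries (-1.28 ± 0.07, adjusted p = 8.23e-16), and SPRY4 (-1.15 ± 0.09), DUSP4 (-0.83 ± 0.09) and JUNB (-0.93 ± 0.10) were lower too. Small heat shock proteins had opposite differences: CRYAB (0.66 ± 0.05) and HSPB8 (0.82 ± 0.05) were higher, and HSPB6 (-0.73 ± 0.09) and HSPB7 (-0.79 ± 0.15) were lower. Of 28 p53 targets and senescence genes, 14 were higher and 4 lower, and of 19 clock genes 3 and 5, with NPAS2, a clock activator, at 71.4, 76.9 and 79.9 CPM in inner zone and 43.2, 43.6 and 45.2 CPM in outer zone libraries (0.79 ± 0.05).

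The remaining lists held few large differences. Of 15 tested cyclin D and CDK inhibitor genes, 10 were higher in inner zone cells and 3 were lower (median 0.37). Of 11 Hedgehog genes 4 were higher and 2 lower, with HHIP, which binds Hedgehog ligands, at 1.58 ± 0.23 and GAS1, a coreceptor, at -0.93 ± 0.05. Prostaglandin and nitric oxide genes gave 2 higher and 5 lower of 15, ion and zinc carriers 2 and 11 of 22, heat shock proteins 6 and 2 of 20, ER chaperones 2 and 5 of 23, and ribosome biogenesis genes 4 and 9 of 33. The exchanger SLC8A1, which removes calcium from cells, had the largest difference among the ion carriers (-1.99 ± 0.27). Markers of synovial lining summed to 145 to 151 CPM in inner and 163 to 166 CPM in outer zone libraries, those of Schwann cells and nerve to 93.2 to 101.5 CPM in inner and 83.7 to 88.3 CPM in outer zone libraries with CDH19 and MAG at 0, those of skeletal muscle to 13.4 to 14.6 CPM in inner and 12.5 to 13.7 CPM in outer zone libraries with MYOG at 0, and those of adipocytes to 1.81 to 2.45 CPM in inner and 2.17 to 3.04 CPM in outer zone libraries with ADIPOQ at 0.

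Most of the zone differences of stretched cells were also present in unstretched cells, which are other libraries. In unstretched cells 916 genes were called (6.71% of those tested), 424 of them higher (3.11%) and 492 lower (3.6%) in the inner zone, and by adjusted p alone 45% passed (20.7% higher, 24.3% lower). Both comparisons called 560 genes in the same direction and none in opposite directions, which is 73.5% of the genes called in stretched and 61.1% of those called in unstretched cells. Of the 202 genes called in stretched cells only, 80 had an adjusted p under 0.05 in the same direction in unstretched cells, and of the 356 called in unstretched cells only, 204 had one in stretched cells. A gene called in one and not the other is not shown to differ: of these 202 and 356 genes, 2 and 9 passed the test of the difference itself.

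That test, the zone difference in stretched minus that in unstretched cells, called 50 genes at an adjusted p under 0.05 (0.366% of those tested), 41 above 0 (0.3%) and 9 below 0 (0.0659%). At an unadjusted p under 0.05 there were 1053. Of the 41 genes above 0, 29 were lower in inner zone cells at rest, and of the 50 genes 30 had a difference nearer 0 in stretched than in unstretched cells and 14 had differences of opposite sign. The difference at rest is subtracted in the test that picked these genes, so these counts follow in part from the picking. Shares over all tested genes were not counted beside them. The count of 50 depends on single libraries: without outer replicate 5 of the stretched cells it was 141, of which 49 are among the 50, and without any other of the 12 libraries it was 19 to 41. Of the 50 genes, 17 kept their call whichever of the 12 libraries was left out.

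Among the 17, KSR1, the ATF4 target TRIB3 and IL16 had the largest values above 0. KSR1, a scaffold of the MAP kinase pathway, measured 7.06, 9.23 and 9.47 CPM in stretched inner and 9.93, 13.8 and 12.0 CPM in stretched outer zone libraries, and 7.76, 6.24 and 7.42 CPM in unstretched inner and 21.6, 23.5 and 22.0 CPM in unstretched outer zone libraries. Its zone difference was -0.48 ± 0.11 in stretched and -1.65 ± 0.10 in unstretched cells, a gap of 1.17 ± 0.15 (adjusted p = 1.13e-04), with the unstretched outer zone libraries standing apart from the other 3 groups. TRIB3, a pseudokinase induced by ATF4, measured 13, 14.1 and 15.4 CPM in stretched inner and 7.12, 8.70 and 7.99 CPM in stretched outer zone libraries, and 3.54, 3.93 and 3.56 CPM in unstretched inner and 4.82, 3.65 and 4.74 CPM in unstretched outer zone libraries (1.09 ± 0.17, adjusted p = 9.36e-04). CHAC1 had 9.55, 8.51 and 7.57 CPM in unstretched inner and 6.12, 7.68 and 6.75 CPM in unstretched outer zone libraries beside the stretched values above (0.84 ± 0.14, adjusted p = 0.00217). For both genes stretched libraries of either zone lay above all unstretched ones, and the stretched inner zone was highest. ATF3, a stress-induced transcription factor (0.83 ± 0.15, adjusted p = 0.00698), IL16, a cytokine (0.98 ± 0.17), MALT1, a protease of NF-κB signalling (0.64 ± 0.11), and HK2, a hexokinase (0.62 ± 0.10), also kept their calls, as did the signalling genes IL4R and SMAD3 and the cyclins CCND1 and CCND2.

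HK2 measured 51.0, 48.3 and 54.6 CPM in stretched inner and 35.5, 33.5 and 30.5 CPM in stretched outer zone libraries, which did not overlap, and 37.0, 35.6 and 34.9 CPM in unstretched inner and 33.8, 36.9 and 35.5 CPM in unstretched outer zone libraries, which did. RUNX2 had a zone difference of -1.34 ± 0.13 in stretched and -2.29 ± 0.16 in unstretched cells (0.95 ± 0.21, adjusted p = 0.0326), MNT, a repressor that competes with MYC, one of -0.40 ± 0.08 and -0.99 ± 0.08 (0.58 ± 0.12), and SLC19A2, a thiamine transporter, one of 0.31 ± 0.11 and -0.34 ± 0.11 (0.65 ± 0.15). When 1 of the 12 libraries was left out, RUNX2 kept the interaction call in 2, MNT in 8 and SLC19A2 in 1 of the 12 fits, with adjusted p up to 0.191 for RUNX2, 0.0695 for MNT and 0.174 for SLC19A2.

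Below 0 stood HES1, ZFP36L2 and 7 division genes. HES1 measured 4.51, 5.22 and 4.63 CPM in unstretched inner and 16.3, 15.7 and 15.7 CPM in unstretched outer zone libraries, so that its difference of -2.72 ± 0.13 in stretched cells was further from 0 than that of -1.73 ± 0.10 in unstretched cells (-0.99 ± 0.18, adjusted p = 0.00544), and it kept the call without any 1 library. ZFP36L2, which destabilises mRNAs, had -0.15 ± 0.06 in stretched and 0.29 ± 0.06 in unstretched cells (-0.44 ± 0.09). The division genes PSRC1 (-0.60 ± 0.12), CDCA2 (-0.59 ± 0.13), CCNB3 (-0.53 ± 0.11), AURKB (-0.45 ± 0.10), CCNF (-0.39 ± 0.09), KIF4A (-0.37 ± 0.09) and TK1 (-0.36 ± 0.08) were higher in inner zone cells in both conditions, by less in stretched cells. CCNF, cyclin F, measured 44.4, 44.3 and 46.7 CPM in stretched inner and 34.5, 29.3 and 31.0 CPM in stretched outer zone libraries, and 49.8, 50.8 and 51.2 CPM in unstretched inner and 29.2, 27.2 and 24.7 CPM in unstretched outer zone libraries. The zones were separate in both conditions and lay nearer to each other in stretched cells.

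The calls of the 7 division genes were mostly lost when 1 of the 12 libraries was left out: AURKB and CDCA2 kept theirs in 1 of the 12 fits, TK1, KIF4A, CCNF and CCNB3 in 2 and PSRC1 in 7, with adjusted p up to 0.212 for AURKB. Without outer replicate 5 the pattern was broader: 23 of the 37 mitosis genes and 3 of the 40 DNA replication genes then had a smaller zone difference in stretched than in unstretched cells at an adjusted p under 0.05, against 3 mitosis genes and 1 DNA replication gene with all libraries, and AURKB stood at -0.53 (adjusted p = 0.00332) and CDCA2 at -0.74 (adjusted p = 1.67e-05). Over all 13653 tested genes, the fit without outer replicate 5 called 67 below 0 and 74 above 0. With all libraries, the difference was nearer 0 in stretched cells for 36 of the 37 mitosis genes. The share of all tested genes with a difference nearer 0 was not counted, so this number has no baseline beside it. Genes of these lists share cells and libraries and are not independent replicates.

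**Figure D4:**
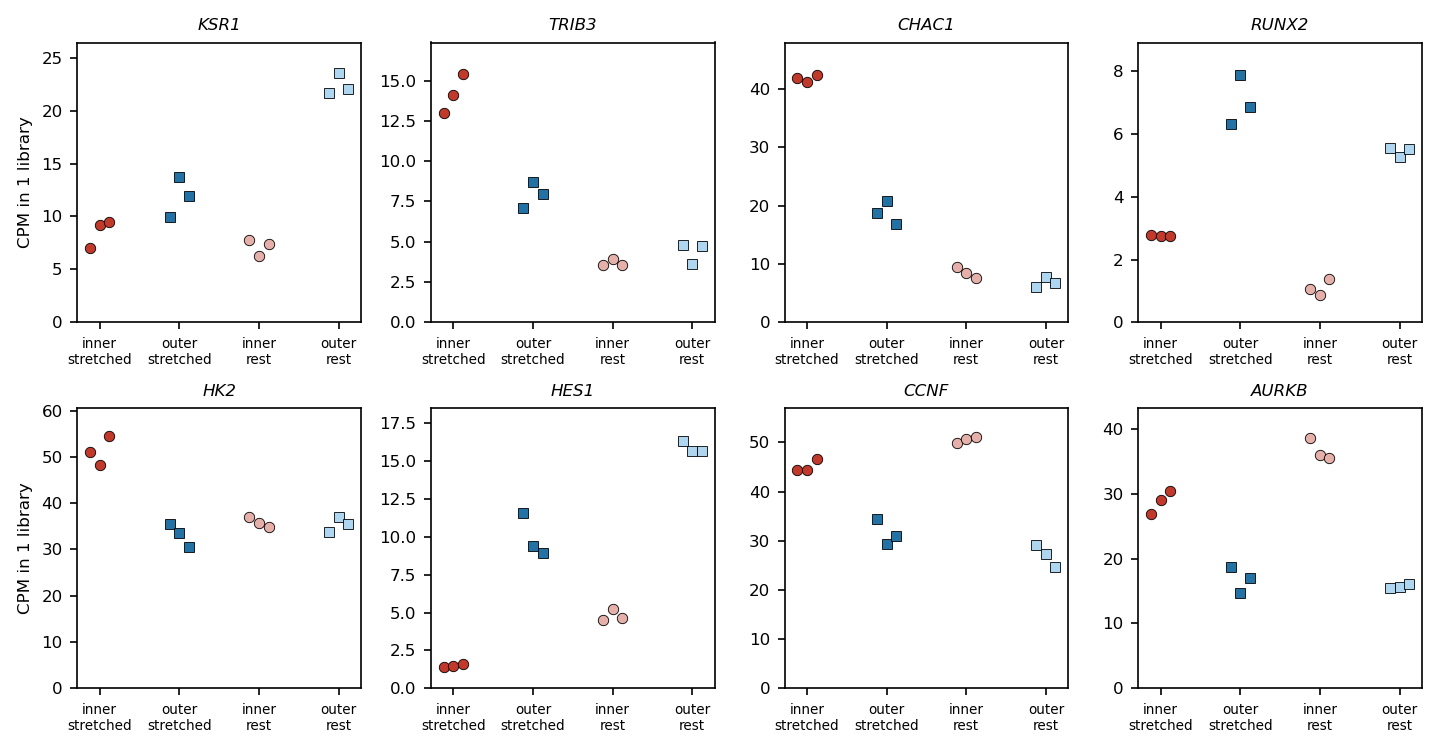
Level in each library (CPM) of 8 genes whose zone difference changed with stretch, in stretched inner, stretched outer, unstretched inner and unstretched outer zone cells (3 libraries each; rest on the axis means unstretched). CHAC1 lies at 41.1 to 42.4 CPM in stretched inner zone libraries and under 10 CPM in unstretched ones, and HES1 lies under 2 CPM in stretched inner zone libraries.

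**Figure D5:**
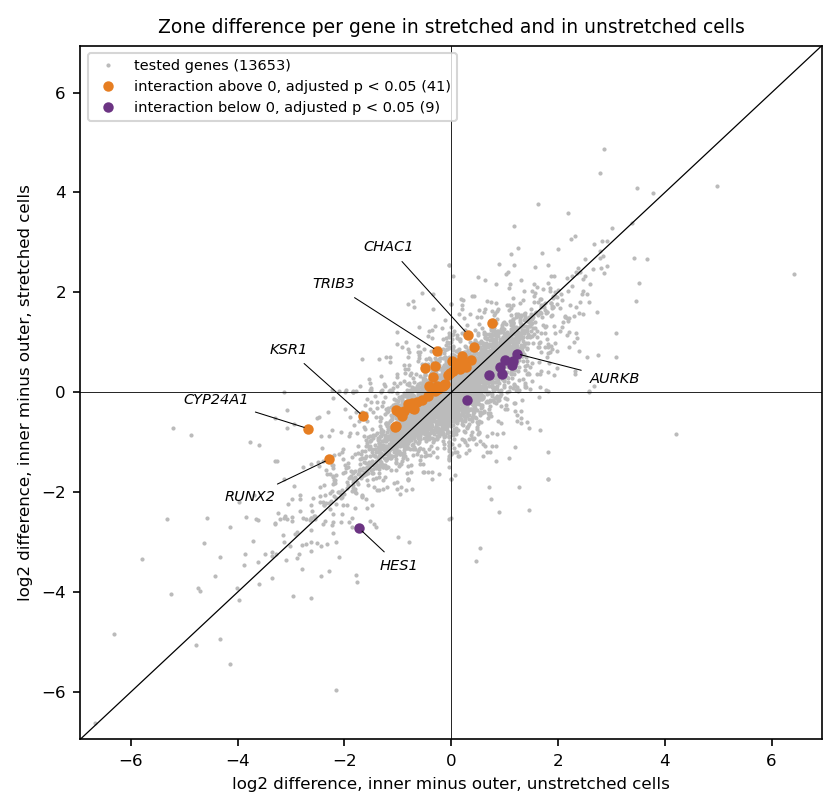
Log2 difference, inner minus outer zone, of each of the 13653 tested genes in stretched cells (vertical axis) and in unstretched cells (horizontal axis); the line marks equal differences, and colours mark the 41 genes with an interaction above 0 and the 9 below 0. Most genes lie along the line, and 29 of the 41 coloured points above it belong to genes that were lower in inner zone cells at rest. The difference at rest is subtracted in the test that picked these points, so that count follows in part from the picking.

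With IL-1 in the medium, stretched inner and outer zone cells differed in 950 genes (6.96% of those tested, 3.37% higher and 3.59% lower in the inner zone), and unstretched ones in 940 genes (6.88%, 3.21% higher and 3.68% lower). In stretched cells the zone difference without IL-1 minus that with IL-1 passed the test in 711 genes (5.21%), 316 above 0 (2.31%) and 395 below 0 (2.89%). TNFAIP6, a hyaluronan-binding protein of inflammation, averaged 11.6 ± 0.755 CPM in inner zone and 18.5 ± 0.889 CPM in outer zone cells without IL-1, and 73.0 ± 3.58 CPM in inner zone and 281 ± 17.1 CPM in outer zone cells with it (SD, n = 3 each). Its zone difference was -0.67 ± 0.11 without and -1.95 ± 0.08 with IL-1 (1.28 ± 0.14, adjusted p = 4.89e-06). AXIN2 averaged 16.8 ± 1.48 CPM in inner zone and 8.58 ± 0.0526 CPM in outer zone cells without IL-1, and 12.7 ± 0.851 CPM in inner zone and 13.7 ± 0.641 CPM in outer zone cells with it, so that its difference was 0.97 ± 0.08 without and -0.11 ± 0.08 with IL-1 (1.08 ± 0.11, adjusted p = 7.42e-08). The difference of HES1 was -2.72 ± 0.13 without and -0.98 ± 0.08 with IL-1 (-1.74 ± 0.16, adjusted p = 1.12e-08), and that of BHLHE41, a clock repressor, was -0.46 ± 0.09 and 0.65 ± 0.08 (-1.12 ± 0.12). Among the lists, 7 of 35 ATF4 genes had a test result above 0 and none below, TRIB3 among them (1.02 ± 0.12), and 10 of 55 limb and positional factors had one below 0 and 2 above. MEIS1, a HOX cofactor, had a zone difference of 0.70 ± 0.12 without and 1.42 ± 0.17 with IL-1. Of the mitosis genes none passed in either direction.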

How the data were processed

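Stranded mRNA libraries of 24 wells (8 groups of 3) were sequenced. The authors trimmed reads with Trim Galore and cutadapt, mapped them to Sscrofa11.1 with STAR, kept uniquely mapped reads and counted them in genes with HTSeq. Versions are not given in the sources used here. Deposited values used here are these raw read counts per gene. A second deposited table of counts normalized with DESeq2 was not used. Mapping only unique reads lowers genes with near-identical copies.

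All 24 libraries were fitted together with edgeR 4.0.16 in R 4.3.3, with TMM scaling, 1 mean per group and the robust quasi-likelihood test. The filter kept genes that reached 10 reads in at least 1 library, and p-values were adjusted by the Benjamini-Hochberg method over 13653 genes. The call of a zone difference required an adjusted p below 0.05 and more than 2-fold change, that of an interaction only the adjusted p. On simulated data for the stretched zone comparison over 13653 genes, a gene counted as found by adjusted p below 0.05 alone, without the bound on the fold. The changed genes were drawn from those with at least 1 CPM. Of 50 genes changed 1.5-fold, 39 were found, as were all 50 at each of 2-fold, 3-fold and 4-fold, and 3.08% of calls were false. The simulation does not measure the rule with the fold bound, or how often changed genes under 1 CPM are found. All other genes in it had no zone difference, whereas 44.1% of tested genes passed in the data. The shares found and false need therefore not hold for the data. Alternatives were DESeq2 1.42.0, other scalings and filters, fits on fewer libraries, a block for well number and leaving out each library. The list counts and single interaction genes without each library were added after seeing the data, because stretched outer replicate 5 stood apart.

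Genes named are those of the study, the 15 largest called differences in each direction of at least 5 CPM in the higher zone with replicates apart, the 10 largest interactions with stretch and 5 with IL-1 in each direction with a symbol and at least 5 CPM in a group, and up to 5 members per list. Others were picked after their values were seen. They are COL11A1, MATN2, CILP, CHAD, COL27A1, SMAD6, SMAD7, SNAI1, TGFBI, CTGF, LTBP2, TAGLN, MMP13, CEBPB, SLC38A2, NUPR1, CCND1, CCND2, IL4R, SMAD3, MEIS1, HBEGF, FGF1, SOX9 and CYP24A1. The members and lists were chosen with earlier results of these data known. Promoter windows came from the RefSeq annotation of Sscrofa11.1, another annotation than that of the counts, and 275 of 279 named genes were found in it. Some single genes are not reported here.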

Additional observations from a re-analysis of the deposited data

Results flagged for a closer look

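The zone difference of 50 genes differed between stretched and unstretched cells, by the interaction test of edgeR with Benjamini-Hochberg adjustment. Among genes with a symbol and a mean of at least 5 CPM in a group, the 10 largest values above 0, given as the log2 zone difference in stretched minus that in unstretched cells, were 1.17 for KSR1, 1.09 for TRIB3, 0.98 for IL16, 0.95 for RUNX2, 0.84 for CHAC1, 0.83 for ATF3, 0.65 for SLC19A2, 0.64 for MALT1, 0.62 for HK2 and 0.58 for MNT. Outside those limits, CYP24A1, which breaks down vitamin D, had 1.95 at a mean of at most 2.51 CPM (adjusted p = 0.0179), and ENSSSCG00000002501, which has no symbol, had 0.68 (adjusted p = 0.00511). All those below 0 were -0.99 for HES1, -0.60 for PSRC1, -0.59 for CDCA2, -0.53 for CCNB3, -0.45 for AURKB, -0.44 for ZFP36L2, -0.39 for CCNF, -0.37 for KIF4A and -0.36 for TK1. All stretched wells carry another label prefix than the unstretched wells, so that stretch and what the prefix marks cannot be told apart.

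In stretched cells the zone difference of 711 genes differed between cells without and with IL-1, by the same test. The stretched wells with IL-1 carry another label prefix than those without, so that IL-1 and what the prefix marks cannot be told apart. The values, without minus with IL-1, were 1.28 for TNFAIP6, 1.28 for SIK1, a salt-inducible kinase, 1.14 for MCHR1, a receptor of melanin-concentrating hormone, 1.11 for MN1, a transcription coregulator, and 1.08 for AXIN2. Below 0 they were -2.09 for ECEL1, -1.74 for HES1, -1.48 for FAM46C, an enzyme that adds adenosines to mRNA, -1.13 for NOG, a secreted inhibitor of BMP, and -1.12 for BHLHE41.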

How the results depend on the processing

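With DESeq2, other scalings, other filters, or a fit on the 6 stretched libraries alone, the count of 762 genes called between stretched inner and outer zone cells moved by less than 1.5 times, and DESeq2 called 716 of them. Without the bound on the fold it was 6018. Leaving out 1 of the 6 libraries gave 711 to 786 genes. The same gave 846 to 931 in unstretched cells, 874 to 977 in stretched and 862 to 964 in unstretched cells with IL-1, and leaving out 1 of 12 libraries gave 502 to 837 genes whose zone difference changed with IL-1. The 50 genes whose zone difference changed with stretch became 77 with no filter on low counts, 121 in a fit on the 12 libraries without IL-1 and 116 with DESeq2, which held all 50, and 19 to 141 when 1 library was left out. The count was 33 and 22 without stretched inner replicates 1 and 3, 24, 26 and 19 without unstretched inner replicates 1, 2 and 3, 25, 141 and 22 without stretched outer replicates 4, 5 and 6, and 19 and 29 without unstretched outer replicates 5 and 6. The cause of these changes was not tested, apart from there being fewer libraries.

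With the well number as a replicate block over the 12 libraries without IL-1, 160 genes were called, and 49 of the 50 were among them. Deviations of same-numbered wells correlated between -0.24 and 0.33 over 6 pairs and 8432 genes, with 2 pairs over 0.1 and 2 best with their own number, so the numbers were not taken to pair the samples. No paired analysis was possible for the zones because inner and outer wells share no number.

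The 279 named genes, each looked up in every setting that held it, gave 3623 results, which share libraries and are not independent checks. Of these results, 3550 kept the direction and the side of the threshold of the stretched zone difference. Another 66 lost the call (21 genes), 6 gained it (5 genes) and 1 turned round. That was CXCL10, at 0.0604 (adjusted p = 0.986, edgeR) without stretched outer replicate 5, with values of -0.69 to 0.0604 when 1 library was left out. Upper-quartile scaling moved the median of all genes to 0.0042, against -0.0099, and the share of higher among called genes to 46.5%, against 45.3%. With 3 wells of pooled cells a group, the data do not measure variation between animals, and differences of 1.5-fold were not always found in simulated data.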
